A study of Mus musculus with 8 samples.

Results

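The immediate early genes described here were 10 genes of 3 families, namely Fos, Fosb, Fosl1 and Fosl2, Jun, Junb and Jund, and Nr4a1, Nr4a2 and Nr4a3, out of 21000 mouse genes with a curated RefSeq mRNA. Their members were taken by symbol, and a summit of an ATAC-seq peak was counted to a gene if it lay inside the gene or at most 50 kb from one of its transcription start sites (TSSs). By this rule 154 of the 32173 summits in the deposited list fell to the 10 genes. The study used ATAC-seq, in which the Tn5 transposase cuts and tags DNA that is free of nucleosomes, on brown adipose tissue (BAT) of 2 WT and 2 Dot1L-BKO mice. WT were Dot1l f/f control mice. Dot1L-BKO mice carried the same floxed Dot1l allele, which had been passed through FLPe mice, together with Ucp1-Cre. All were 12 weeks old and were exposed to 4°C for 4 hr before they were killed, so that no warm mice are in the series. Cre acts in Ucp1+ cells, so that the other cells of the tissue keep Dot1l. Each library came from nuclei of a separate mouse. The matching RNA-seq libraries, 2 per genotype, were not analysed here, so nothing in the values below is a transcript level.

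A single list of peak summits, the highest point of each peak, was deposited for the 4 ATAC-seq libraries. Its name sets WT libraries against Dot1L-BKO ones. Which of them entered the peak calling as the control is not known here. Each summit has 1 value, the −log10 of the q-value of its peak, which is called the score below. If the Dot1L-BKO libraries were the control, a score would measure the excess of WT over Dot1L-BKO reads at a site rather than how open the site was, so that the scores, ranks and medians below are given as scores of this list and not as degrees of openness. A site open alike in both genotypes would then have no summit, so that each count of genes with a summit, here and over all genes, is a count over this list and not of open promoters. Since no library has a value of its own, read depth and replicate error are unknown and no comparison of genotypes was made here. In whole tissue, a site that is open in few cells and one that is weakly open in many cannot be told apart. Scores were compared only within the list and without a test. Scores take 2606 distinct values over the 32173 summits, so that ties are common. Intervals are 95% Wilson intervals and cover counting error only.

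Immediate early genes are transcribed within minutes of a stimulus without the need for new protein. Fos and Jun proteins join through their leucine zippers to form the AP-1 transcription factor, and the Nr4a proteins are orphan nuclear receptors that are active without a known ligand. In BAT, cold raises sympathetic noradrenaline, which acts through β-adrenergic receptors, cAMP and protein kinase A on CREB. CREB binds the cAMP response element (CRE), and serum response factor binds the serum response element together with ETS proteins. Both kinds of element are textbook features of promoters in this group of genes.

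Marker genes of BAT and of other cell types were read from the same list. With the control of the peak calling unknown, this does not settle the cell makeup of the tissue. Of 14 genes listed as brown adipocyte markers, 13 had a summit within 1 kb of a TSS (interval 68.5 to 98.7%), against 45.2% of all genes. The list also holds general adipocyte genes, such as Pparg, Fabp4 and Adipoq, which the paper uses as adipogenic markers. It therefore does not set brown adipocytes apart from white ones. The highest scores were 84.8 at Lipe, which encodes hormone-sensitive lipase, 61.5 at Cidea, a lipid droplet protein gene, and 35.0 at Fabp4, a fatty acid binding protein gene. Ucp1, the uncoupling protein of brown fat, had 33.7, and the marker without one was Adrb3. Such a summit was present at 2 of 8 endothelial markers and 2 of 8 macrophage and leukocyte markers (interval 7.15 to 59.1% each) and at 1 of 6 hepatocyte markers (interval 3.01 to 56.4%). These intervals hold the 45.2% of all genes. It was present at 0 of 8 skeletal muscle markers (interval 0 to 32.4%) and 0 of 6 neuronal markers (interval 0 to 39.0%). The score at these 5 genes of other cell types was between 2.15 and 5.55, with Flt1 and Cdh5, Spi1 and Cd68, and Apoa1 as the genes in the order of the lists, and the hepatocyte genes Alb, Apob, Ttr, Serpina1a and Tat had none.

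All 10 immediate early genes had a promoter summit, that is a summit within 1 kb of a TSS (10 of 10, interval 72.2 to 100%), against 45.2% of all 21000 genes. With a score of at least 10, 7 of 10 genes had one (interval 39.7 to 89.2%), against 23.5% of all genes, and the 3 others were Fosb, Fosl1 and Jund. The highest promoter score of each gene ran from 67.4 at Jun and 66.7 at Nr4a3 through 47.3 at Fosl2, 32.5 at Junb, 25.9 at Nr4a1, 15.4 at Nr4a2 and 13.3 at Fos to 6.53 at Fosl1, 6.02 at Fosb and 3.32 at Jund. The median of the 10 was 20.6, and the median of the 9485 genes with a promoter summit was 10.7, with quartiles of 5.55 and 20.9. No error attaches to these scores, so that the order of close neighbours, such as Jun and Nr4a3 or Fosl1 and Fosb, cannot be read as a difference.

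**Figure D1:**
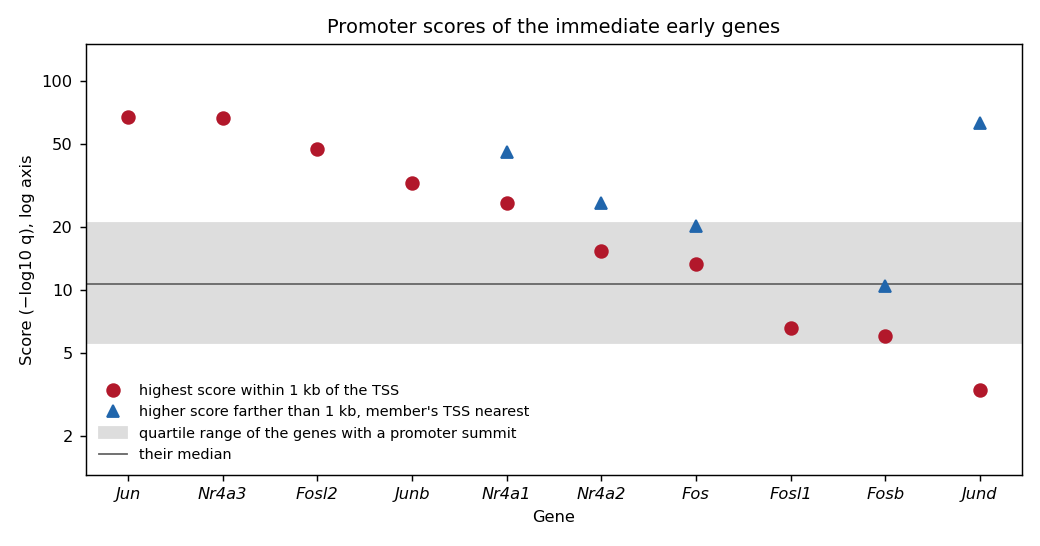
Highest score within 1 kb of a TSS for each immediate early gene (circles, log axis, −log10 q), ordered by score, over the quartile range and median of all genes with a promoter summit. Triangles mark genes with a higher score farther from their TSS. Jun, Nr4a3, Fosl2, Junb and Nr4a1 lie above the upper quartile of 20.9, and Jund, at 3.32, has a triangle at 62.5.

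Fos, the founding member of the family and partner of the Jun proteins in AP-1, lies on the plus strand at chr12:85473890-85477274 in mm10. Its promoter summit had a score of 13.3 and stood 8 bp before the TSS. It ranked 3965 among the 9485 genes with a promoter summit. The bases upstream of Fos are shown because its CRE and serum response element are the classical examples of their kind. The first sequence is the 250 bp before the TSS (chr12:85473640-85473889, plus strand), and the second is a stretch farther upstream (chr12:85473561-85473610, plus strand). Here and below, sequences are from RefSeq on GRCm38, which is mm10, and are written 5′ to 3′ in the direction of the gene. Capitals mark matches on either strand to the CRE (TGACGTCA), to its first 5 bases (TGACG, called the CRE core), to the AP-1 motif (TGACTCA) or to the serum response element.
Fos, 250 bp before the TSS: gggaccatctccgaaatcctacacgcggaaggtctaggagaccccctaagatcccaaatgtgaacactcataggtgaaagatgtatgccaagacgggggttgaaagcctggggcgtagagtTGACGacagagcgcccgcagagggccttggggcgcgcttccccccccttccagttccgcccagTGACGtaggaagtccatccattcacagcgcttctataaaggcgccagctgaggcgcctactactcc
Fos, serum response element: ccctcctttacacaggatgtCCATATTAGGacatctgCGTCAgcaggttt
The 2 CRE core matches in the first sequence start 129 and 66 bp before the TSS. The serum response element spans 309 to 300 bp before the TSS, and a further CRE core match lies just after it, at 292 to 288 bp.

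All 6 summits in the Fos window were nearest to Fos, and no other gene starts there. In the order of the chromosome their scores were 20.2 at 18714 bp before the TSS, 2.15 at 2835 bp before, 11.5 at 1381 bp before, 13.3 at the promoter, 2.92 at 2321 bp after it in a coding exon, and 14.0 at 12121 bp after it. The highest summit was therefore not the promoter but the one 18714 bp upstream, between genes, and the one past the 3′ end of the gene was also above the promoter. The latter had a CRE core and an ETS core (CCGGAA) within 100 bp, and the former none of the motifs that are put in capitals here.

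Fosb, whose protein pairs with Jun proteins as Fos does, had a lower promoter score, below that of Fos. The gene lies on the minus strand at chr7:19302696-19310045, and its promoter score of 6.02, at 465 bp before the TSS, was below the median of genes with a promoter summit. Of the 24 summits in its window, 10 were nearest to Fosb. The highest of these, with a score of 10.4, lay 17215 bp before the TSS and had an AP-1 match within 100 bp. A coding exon summit of 8.45 lay 2694 bp after the TSS. The highest summit of the whole window, 16.0, lay in the promoter of Ercc1, which encodes a DNA repair endonuclease subunit. Fosb also carries a serum response element, at 272 to 263 bp before the TSS, and 3 CRE core matches in the 1 kb upstream, of which the nearest starts 60 bp before the TSS.

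Fosl1, which encodes Fra-1, was nearest to 4 of the 25 summits in its window. The gene lies on the plus strand at chr19:5447698-5455938. It had 2 promoter summits, with a score of 5.07 at 3 bp after the TSS and 6.53 at 906 bp after it in an intron, and only 2 others nearest to it. These were a summit of 2.92 at 1257 bp before the TSS and one of 1.41, among the lowest of the list, at 2750 bp after it. The other 21 summits were nearest to other genes, and 9 other genes start in the window. The highest, 35.9, was in the promoter of Mus81, a structure-specific endonuclease gene.

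Fosl2, which encodes Fra-2, had the highest promoter score of the Fos family. It lies on the plus strand at chr5:32136472-32157840, and its summit of 47.3 lay 997 bp before the RefSeq TSS, just inside the 1 kb limit, and 326 bp before the nearest protein-coding start in GENCODE. It ranked 554 among the 9485 genes. The bases around it (chr5:32135425-32135525, plus strand) are shown as the highest promoter score of the Fos family, and hold no match to be put in capitals.
Fosl2, promoter summit: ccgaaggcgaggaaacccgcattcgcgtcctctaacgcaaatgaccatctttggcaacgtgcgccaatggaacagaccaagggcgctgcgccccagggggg
All 7 summits of the window were nearest to Fosl2. The next was 15.4 in an intron 2138 bp after the TSS, and the remaining 5 were between 2.03 and 8.12, the last of these in the 3′ UTR. The only AP-1 match within 1 kb upstream of any member's TSS was also at Fosl2, 618 to 612 bp before its TSS.

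Jun, which encodes the main partner of Fos, had the highest promoter score of the 10 genes. The gene has a single exon on the minus strand at chr4:95049036-95052222, and its summit of 67.4 stood 2 bp before the TSS. It ranked 173 among the 9485 genes and shared its score with others, so that 5 genes in all had it, with Otop1 next above at 67.7 and Birc6 next below at 67.3. The 250 bp before the TSS (chr4:95052223-95052472, minus strand) hold no CRE as spelled above. They hold a variant with 1 base changed (TGACATCA), which was added to the search after the data had been seen and is in capitals.
Jun, 250 bp before the TSS: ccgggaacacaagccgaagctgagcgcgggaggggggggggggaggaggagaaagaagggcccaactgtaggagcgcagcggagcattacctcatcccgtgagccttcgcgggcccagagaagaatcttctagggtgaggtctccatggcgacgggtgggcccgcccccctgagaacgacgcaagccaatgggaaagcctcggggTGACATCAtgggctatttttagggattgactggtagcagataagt
The variant lies 45 to 38 bp before the TSS and was found within 1 kb upstream of 5.68% of all genes. The other 2 summits of the window, 3.32 at 3620 bp after the TSS and 5.55 at 30537 bp before it, were low, so that only the promoter summit of Jun was high.

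Junb, which is also a single-exon gene and competes with Jun for partners, had a promoter summit of 32.5 at 70 bp before the TSS. It lies on the minus strand at chr8:84976909-84978748 and ranked 1180. The 250 bp before the TSS (chr8:84978749-84978998, minus strand) hold 1 CRE core match, 106 to 102 bp before the TSS.
Junb, 250 bp before the TSS: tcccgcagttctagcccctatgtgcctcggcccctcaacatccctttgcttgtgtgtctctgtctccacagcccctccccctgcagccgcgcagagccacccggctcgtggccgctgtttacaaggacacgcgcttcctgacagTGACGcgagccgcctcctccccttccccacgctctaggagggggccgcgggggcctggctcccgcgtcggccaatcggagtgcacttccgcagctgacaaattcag
Junb stands among close neighbours, and 8 of its 13 summits were nearest to other genes. The highest summit nearest to Junb outside its promoter was 8.65, at 4390 bp after the TSS in the 3′ UTR of Prdx2, a peroxiredoxin gene. The other 3 that were nearest to Junb lay between 2.15 and 3.75.

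Jund, which encodes the Jun protein that many tissues express without a stimulus, is a case where the limit of 1 kb decides the value. Its promoter score of 3.32, at 163 bp before the RefSeq TSS, was the lowest of the 10 genes and ranked 8574, with 190 genes on the same score, Ccl27b next above at 3.33 and Plekhg6 next below. A second promoter summit had a score of 1.49. The highest summit in the window, 62.5, lay 1034 bp after that TSS in the 5′ UTR, just outside the limit, and 176 bp before the nearest protein-coding start in GENCODE. The gene lies on the plus strand at chr8:70697739-70700616. The first sequence is the 250 bp before the RefSeq TSS (chr8:70697489-70697738, plus strand), which hold none of the motifs put in capitals, and the second is the CRE match that starts 38 bp before the summit of 62.5 (chr8:70698724-70698753, plus strand, all in the 5′ UTR).
Jund, 250 bp before the RefSeq TSS: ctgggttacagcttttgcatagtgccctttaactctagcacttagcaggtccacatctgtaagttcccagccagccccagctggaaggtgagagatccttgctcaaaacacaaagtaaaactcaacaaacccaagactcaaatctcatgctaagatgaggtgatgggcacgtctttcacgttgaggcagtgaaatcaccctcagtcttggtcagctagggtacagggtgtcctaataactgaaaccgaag
Jund, CRE near the summit of 62.5: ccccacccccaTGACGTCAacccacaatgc
Of the 27 summits in the Jund window, 6 were nearest to Jund. Apart from those given above, these were 6.02, 5.07 and 2.09, at 9957, 1174 and 2111 bp before the TSS. The highest of the 21 others, 40.1, was in the promoter of Lsm4, which encodes an RNA-binding Lsm protein.

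**Figure D2:**
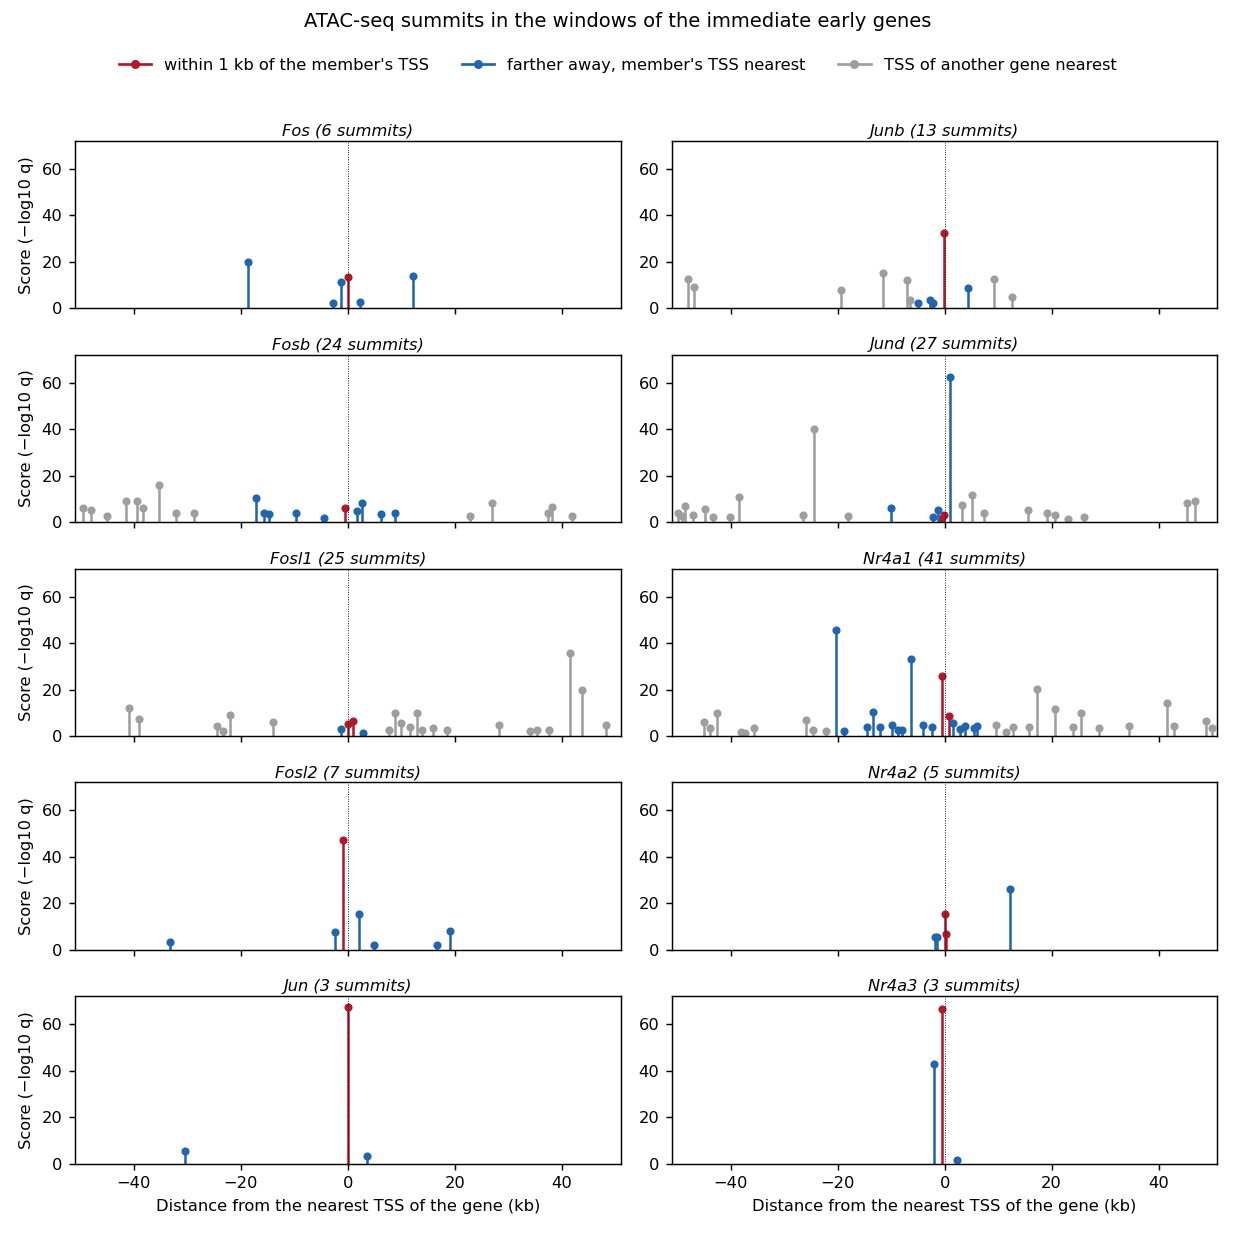
Score of every summit (−log10 q, linear axis) against its distance from the nearest TSS of the gene (kb, negative upstream), 1 panel per gene. Red, within 1 kb of the TSS; blue, farther away with the gene's own TSS nearest; grey, nearest to another gene. Jun and Nr4a3 show 3 summits each, with 1 near 67 at the start, whereas Nr4a1 has 41 spread over the window.

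Nr4a1, which encodes Nur77, had more summits than any other member. The gene lies on the plus strand at chr15:101266846-101274795, and 41 summits fell in its window, of which 18 were nearest to it. Only 45 of the 21000 genes had as many or more in a window, itself included, and 53 had as many or more nearest to them. Its promoter summits were 25.9 at 577 bp before the TSS and 8.65 at 809 bp after it in an intron. The one with the higher score is shown (chr15:101266219-101266319, plus strand) and holds none of the motifs put in capitals.
Nr4a1, promoter summit: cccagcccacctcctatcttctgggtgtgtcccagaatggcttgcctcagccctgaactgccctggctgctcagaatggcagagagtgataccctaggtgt
Farther upstream were 2 summits above the promoter, of 45.5 at 20374 bp and of 33.3 at 6196 bp before the TSS. The first ranked 689 of the 32173 summits. These distances are to the curated RefSeq TSS, and starts of predicted transcripts of the gene lie closer, 7430 bp from the first and 3216 bp from the second. With the starts of all RefSeq transcripts, 8 summits instead of 2 lay within 1 kb of a start of Nr4a1. The bases around the first (chr15:101246372-101246572, plus strand) are shown because it is the highest summit of the family away from a curated TSS.
Nr4a1, summit 20374 bp before the TSS: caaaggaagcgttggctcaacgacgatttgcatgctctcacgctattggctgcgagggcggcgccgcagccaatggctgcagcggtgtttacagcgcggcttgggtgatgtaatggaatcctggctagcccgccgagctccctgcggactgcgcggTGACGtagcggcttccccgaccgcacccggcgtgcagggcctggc
The capitals are its CRE core match, and it has a SP/KLF box (GGGCGG) within 100 bp as well. Of the 14 other summits nearest to Nr4a1 outside its promoter, 1 reached a score of 10, namely 10.4 at 13390 bp before the TSS and 446 bp from a predicted start, and the rest lay between 2.15 and 5.55. The region downstream, toward Atg101, an autophagy gene, held a summit of 20.2 at 17240 bp after the TSS that was nearest to Atg101.

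Nr4a2, which encodes Nurr1, has 2 curated TSSs, and each had a promoter summit. The gene lies on the minus strand at chr2:57107226-57124003. The summit at the downstream start scored 15.4 and stood 4 bp before it, and the summit at the upstream start scored 7.05 and stood 322 bp after it. The 250 bp before the downstream start (chr2:57115039-57115288, minus strand) hold a full CRE 47 to 40 bp before it, the only full CRE by a promoter summit of the 10 genes. All 250 bp lie in an intron of the longer transcript.
Nr4a2, 250 bp before the downstream TSS: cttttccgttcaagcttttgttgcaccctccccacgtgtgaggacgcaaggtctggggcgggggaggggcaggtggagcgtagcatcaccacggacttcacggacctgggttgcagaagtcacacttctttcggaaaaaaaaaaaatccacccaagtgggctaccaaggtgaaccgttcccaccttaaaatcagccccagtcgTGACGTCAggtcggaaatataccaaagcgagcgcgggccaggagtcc
Summits of 5.55 and 5.55 lay between the starts, 1389 and 1886 bp before the downstream one. The highest summit of the window was past the 3′ end, 26.1 at 12314 bp after the TSS, and the bases around it (chr2:57102624-57102824, minus strand) hold an AP-1 match.
Nr4a2, summit 12314 bp after the TSS: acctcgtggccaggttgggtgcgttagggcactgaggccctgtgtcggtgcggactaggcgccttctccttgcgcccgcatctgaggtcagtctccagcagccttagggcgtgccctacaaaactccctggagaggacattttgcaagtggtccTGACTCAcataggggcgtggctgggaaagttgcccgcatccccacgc
No other gene starts in the Nr4a2 window, and all 5 summits were nearest to it.

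Nr4a3, which encodes Nor1, had 3 summits, of which 2 were among the highest of the members. It lies on the plus strand at chr4:48045305-48086446. The promoter summit of 66.7 lay 531 bp before the TSS and ranked 181 among the 9485 genes, a summit of 42.8 lay 2022 bp before the TSS, and a summit of 1.83 lay 2244 bp after it in an intron, which is 4 bp from a predicted start. The bases around the promoter summit (chr4:48044724-48044824, plus strand) hold none of the motifs put in capitals but have a SP/KLF box, and the 4 CRE core matches upstream of Nr4a3 lie between 231 and 143 bp before the TSS.
Nr4a3, promoter summit: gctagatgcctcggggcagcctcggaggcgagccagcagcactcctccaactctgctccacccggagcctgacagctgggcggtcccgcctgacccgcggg
No other gene starts within the window of Nr4a3.

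Each of the 10 genes had at least 1 summit in its window, against 72.5% of all genes, and all 10 had more than the median gene. The number per window was 41 at Nr4a1, 27 at Jund, 25 at Fosl1, 24 at Fosb, 13 at Junb, 7 at Fosl2, 6 at Fos, 5 at Nr4a2 and 3 each at Jun and Nr4a3. The median over the 10 genes was 10, and over all genes 2 with an upper quartile of 5 and a 90th percentile of 11. The 5 genes with more than 11 summits had between 3 and 9 other genes that start in the window, whereas the 5 with fewer had 0. Of the 154 summits, 67 were nearest to a member (43.5%, interval 35.9 to 51.4%) and 87 to another gene, and 25 of the latter lay in the promoter of that gene. By family, 27 of 62 summits were nearest to a Fos gene, 14 of 43 to a Jun gene and 26 of 49 to a Nr4a gene.

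**Figure D3:**
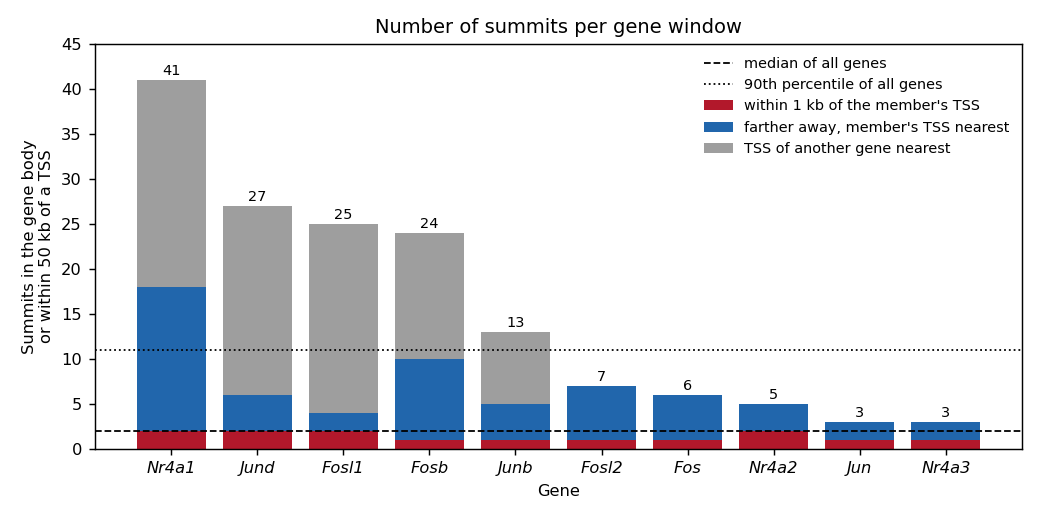
Number of summits inside each gene or at most 50 kb from a TSS, split into those within 1 kb of its TSS (red), those farther away with its TSS nearest (blue) and those nearest to another gene (grey). The dashed and dotted lines are the median of 2 and the 90th percentile of 11 over all genes. Grey makes up most of the bars of Jund, Fosl1, Fosb, Junb and Nr4a1 and is absent from the other 5.

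The highest summit nearest to a gene was in its own promoter for 5 of the 10, Fosl1, Fosl2, Jun, Junb and Nr4a3 (interval 23.7 to 76.3%), against 68.4% of the 4660 genes with a promoter summit and 2 or more nearest summits. For the other 5 it lay farther away, from 1034 bp at Jund to 20374 bp at Nr4a1. The 14 promoter summits of the members had a median score of 11, and all 10375 summits within 1 kb of a TSS one of 8.65. The 53 summits that were nearest to a member and outside its promoter had a median of 4.16, equal to that of all 21798 summits farther than 1 kb. By position, 34 of the 154 summits lay in an exon, 42 in an intron and 78 between genes. The same split was not made over all summits, so that these counts cannot be read as particular to the 10 genes. Among the 1000 highest summits of the list were 7 of the 154 (4.55%, interval 2.22 to 9.08%), against 3.12% of all summits with ties included, and 1 of the 7 was the Lsm4 promoter summit in the Jund window. In masked repeats lay 10 of the 154 (6.49%), against 12.9% of all summits.

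Short sequence motifs were counted on both strands within 100 bp of each summit. The AP-1 motif, to which the Fos and Jun proteins themselves bind, was found at 11 of the 154 summits (7.14%, interval 4.03 to 12.3%), against 5.10% of all summits. None of these 11 was a promoter summit of a member, and 3 were nearest to a member, at Fosb, Fosl1 and Nr4a2, with scores of 10.4, 1.41 and 26.1. The full CRE was found at 4 (2.60%, interval 1.01 to 6.49%), against 1.03%, and the CRE core, which every full CRE contains, at 24 (15.6%, interval 10.7 to 22.1%), against 14.8%. The serum response element was found at 3 (1.95%, interval 0.665 to 5.57%), against 0.752%. These 4 motifs were the ones with a higher share at the member windows than over the list, and the other 6 had a lower share. In all 10 the interval held the share over the list. Of the 154 summits, 25.3% lay within 1 kb of any TSS, against 32.2% of all summits. The side depended on the set of summits for AP-1 and for some other motifs, given below. AP-1 was found at 0 of 14 promoter summits of the members, against 2.81% of all summits within 1 kb of a TSS. Outside the promoters it was at 3 of the 53 (5.66%) nearest to a member, against 6.18% of all farther than 1 kb. Over the 67 nearest to a member it was at 4.48%, against 5.10% of the list. The NBRE (AAAGGTCA), the element bound by single Nr4a proteins, was found at 1 summit (0.649%, against 1.59%), the one of 1.41 at Fosl1. The ETS core was at 5.19% against 9.57%, the E-box (CACGTG) at 4.55% against 4.68%, the NF-kB motif at 3.25% against 6.04%, the C/EBP motif (TTGCNNAA) at 9.09% against 10.9%, and the SP/KLF box at 17.5% against 20.6%. Yet the ETS core (7.55%, against 4.70%) and the SP/KLF box (15.1%, against 9.07%) had a higher share at the 53 than farther than 1 kb. At the 14, so had the C/EBP motif (14.3%, against 5.56%), the NF-kB motif (7.14%, against 3.80%) and the E-box (7.14%, against 6.48%). The serum response element was at 0 of the 14, against 0.752%. The CRE, the CRE core and the NBRE kept their side in both sets. A match is a string of letters and not a measured binding site, and summits of 1 window share a locus.

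**Figure D4:**
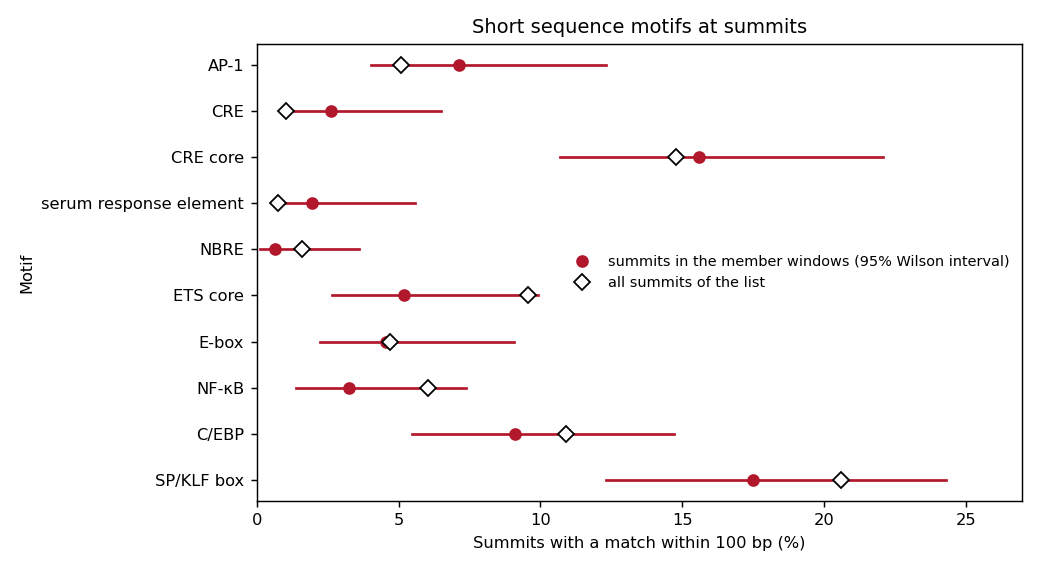
Share of summits with a motif match within 100 bp (percent) for the 154 summits of the immediate early genes (red, with 95% Wilson intervals) and for all 32173 summits (open diamonds). The AP-1 motif, the CRE, the CRE core and the serum response element lie to the right of their diamonds and the other 6 to the left, and the AP-1 motif falls to 4.48%, left of its diamond, over the summits nearest to a member.

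Of the 4 summits with a full CRE, the 1 at Jund and the 1 at Nr4a2 are shown above. The other 2 lay in windows of members but were nearest to other genes, and are shown because they are the remaining full CREs. One, with a score of 4.16, lay 28830 bp before the TSS of Fosb and nearest to Ercc1 (chr7:19338825-19338925, minus strand). The other, with a score of 4.04, lay 12851 bp after the TSS of Nr4a1 and nearest to Atg101 (chr15:101279647-101279747, plus strand).
Fosb window, summit 28830 bp before the TSS: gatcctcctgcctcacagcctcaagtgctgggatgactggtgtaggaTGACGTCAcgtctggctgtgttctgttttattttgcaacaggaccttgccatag
Nr4a1 window, summit 12851 bp after the TSS: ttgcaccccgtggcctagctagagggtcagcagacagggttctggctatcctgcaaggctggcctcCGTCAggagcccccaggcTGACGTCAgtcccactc
The full CREs nearest to a member therefore stood at summits of 62.5 and 15.4, and those nearest to another gene at 4.16 and 4.04.

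In the 1 kb upstream of the farthest upstream TSS, whatever the summits, the CRE core was found in 9 of the 10 genes, all but Jund, against 39.5% of all 21000 genes. The SP/KLF box was found in 10 of 10, against 52.7%, the ETS core in 4 of 10, against 26.1%, the C/EBP motif in 6 of 10, against 35.2%, the NF-kB motif in 4 of 10, against 12.1%, the E-box in 2 of 10, against 16.5%, and the NBRE in 0 of 10, against 4.89%. The serum response element was found in 2 of 10, Fos and Fosb, against 5.51%, and the AP-1 motif in 1 of 10, Fosl2, against 14.9%. The full CRE was in 0 of 10, against 2.78%, since the ones at Jund and at the downstream start of Nr4a2 lie outside this stretch. In the RefSeq promoter sequences, which run from 250 bp before to 50 bp after a start, 9 of the 10 genes had an entry, and Fosl1 is named only. There the CRE core was in 6 of 9, against 24.2% of 20488 sequences, and the NF-kB motif in 4 of 9, at Fos, Fosb, Fosl2 and Nr4a1, against 4.90%. The SP/KLF box was in 7 of 9, against 47.6%, the ETS core in 1 of 9, against 19.1%, and the C/EBP motif in 1 of 9, against 10.1%. The AP-1 motif, the full CRE, the E-box, the serum response element and the NBRE were in 0 of 9, against 4.74%, 2.30%, 8.03%, 1.51% and 1.32% in that order. The Nr4a2 sequence counted here cannot be that of the downstream start, whose 250 bp printed above hold a full CRE and an E-box. At the promoter summits, 5 of 14 had a CRE core within 100 bp, against 23.1% of all summits within 1 kb of a TSS, and these were at Fos, Fosl1, Fosl2, Junb and Nr4a2. The SP/KLF box was at 5 of the 14 (35.7%), against 45%, and the ETS core at 0 of 14, against 19.8%.

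The genes around this group in the same pathway were read from lists. Of 37 other rapid response genes, 31 had a promoter summit (83.8%, interval 68.9 to 92.3%), against 45.2% of all genes, and their median promoter score was 20.5 beside 20.6 for the Fos, Jun and Nr4a genes. The highest were Trib1, a pseudokinase gene, at 81.9, and Atf3 and Egr1, which encode transcription factors, at 51 each. Klf6 had 51 as well. The 6 without one were Egr3, Egr4, Ier2, Dusp2, Dusp4 and Npas4. Of 14 genes for bZIP proteins that pair with AP-1 proteins, 10 had one (71.4%, interval 45.4 to 88.3%). The lower limit is close to the 45.2% of all genes. Atf7 at 72.5, Atf4 at 54.7 and Atf3 led the list, and Batf, Batf2, Batf3 and Maf had none.

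Upstream of these genes stand the activators that carry the signal to their promoters. Of 17 CREB and SRF activator genes, 12 had a promoter summit (70.6%, interval 46.9 to 86.7%), against 45.2% of all genes, which is close to the lower limit. They were led by Mrtfa, a coactivator of serum response factor, at 34.2, Crtc2, a coactivator of CREB, at 32.5, and Mef2a at 31.7. Crtc3, Crebbp, Elk1, Elk3 and Mef2c had none. Creb1 and Srf themselves had 21.6 and 17.4. Of 20 MAP kinase genes, 16 had a promoter summit (80.0%, interval 58.4 to 91.9%), against the same 45.2%. They were led by Rps6ka5, a kinase of CREB and histone H3, at 74.6, Mapk7 at 39.3 and Mapk14, which encodes p38α, at 30.9. Mapk10, Mapk11, Mapk13 and Map2k6 had none.

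**Figure D5:**
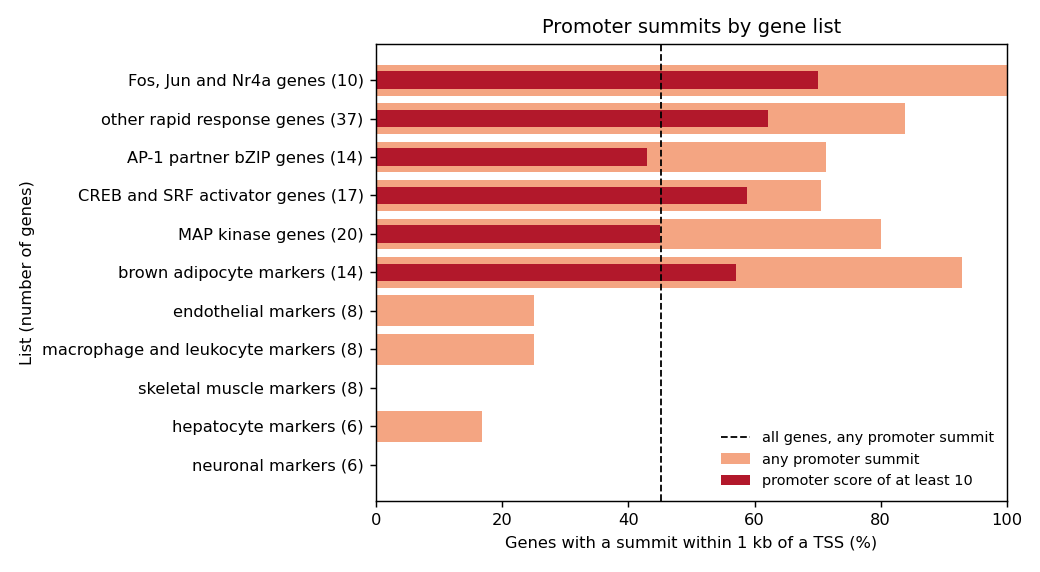
Share of genes with a promoter summit (percent, light bars) and with a promoter score of at least 10 (dark bars) in each list, with the number of genes in brackets and the share over all genes as a dashed line at 45.2%. The Fos, Jun and Nr4a genes stand at 100% and 70.0%, and the lists of other cell types at 25% or less, with no dark bar. The share of all genes with a promoter score of at least 10, 23.5%, is not drawn.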

How the data were processed

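ATAC-seq of BAT (2 WT and 2 Dot1L-BKO libraries) was analysed through 1 list of peak summits that the authors deposited, whose values are the −log10 of the MACS2 q-value. Per the study's methods and the submitters' processing notes, 50-base paired reads were aligned to mm10 with BWA, and called with MACS2 2.1.1 in ATAC mode (q-value cutoff 0.05, fold enrichment cutoff 2.0). The notes also name CASAVA, bcl2fastq 2.2 and cutadapt 1.2.1. The size of any shift of reads for the transposase in that mode and the handling of mitochondrial reads are not given in the sources used here, and either could move summits or scores. No column was left unused for want of a sample (0 such columns).

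Summits were set against curated RefSeq mRNAs of GRCm38 on chromosomes 1 to 19, X and Y. A promoter reached from 1 kb before to 1 kb after a TSS. The RefSeq promoter sequences matched 9 of the 10 genes. The assignment of summits to promoters, windows and nearest TSSs and the motif search were tested on simulated data. Since the summit list used here holds no values per library, no test was run. The members and lists were chosen with earlier results of these data known. Named were all promoter summits of the members, each window's highest summit beyond 1 kb that is nearest to the member, genes whose promoter holds a window's highest summit, the 3 highest genes of each list, and a list's genes without a promoter summit where 5 or fewer. Other summits, Ucp1, Klf6, Creb1, Srf and the 6 rapid response genes without one were named after their values were seen. Cyr61, Mkl1 and Mkl2 were matched under their current symbols, and Atf3, Maff and Crem stand in 2 lists. Alternatives changed the score minimum (2, 5 and 10), the promoter and gene windows, the transcripts, the motif window and the merging of summits within 500 bp. Start sites from GENCODE, the alternatives for the promoter score, the CRE variant and the longer sequences around distal summits were added after seeing the data. Python 3.11.15, numpy 2.4.6, scipy 1.17.1, matplotlib 3.10.9, pysam 0.24.0 and statsmodels 0.14.6 were used.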

Additional observations from a re-analysis of the deposited data

How the results depend on the processing

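All 10 genes had a promoter summit with a score of at least 2, with a 5 kb window, with 1 kb upstream and 100 bp downstream, with all RefSeq transcripts, after merging, and with GENCODE starts. Over all genes the counts in that order were 9382, 10506, 7382, 9769, 9484 and 9479. There were 9 with a score of at least 5, against 7587 of 21000 genes. There were 7 with a score of at least 10, against 4944 of 21000, and 7 with a 500 bp window, against 8704 of 21000. The interval for 7 of 10, 39.7 to 89.2%, holds the share of all genes with a 500 bp window. The median promoter score of 20.6 became 32.5 with a score of at least 10 and 13.3 with a 500 bp window. The 154 summits became 73 with a score of at least 5, 33 with a score of at least 10, 64 within 10 kb and 263 within 100 kb. The 67 nearest to a member became 33 with a score of at least 5 and 18 with a score of at least 10. In each case the alternative keeps fewer summits or a wider or narrower window by construction. Of 50 alternative values for the main results, 42 stayed within the limit of 1.5 times or the spread and 8 moved, all of them given above. Among those for single genes, lists or motifs, 205 stayed and 90 moved. The 4 motifs with a higher share at the member windows than over the list became 3 to 6. AP-1 went below the list with a 50 bp motif window (2.60% against 2.80%) and over summits nearest to a member (4.48% against 5.10%). The E-box (50 bp, or a score of at least 2), the NF-kB motif (200 bp), the C/EBP motif (a score of at least 5 or 10) and the SP/KLF box (a score of at least 10) went above it. The CRE, the CRE core, the serum response element, the NBRE and the ETS core kept their side in each of these settings. None of the settings split promoter summits from the others. In that split the ETS core and the serum response element also changed side, as given above. No paired analysis was possible because libraries have no values of their own in this summit list, and for the same reason leaving out a replicate was not run. With depth and the control of the peak calling unknown, a gene without a summit may have a peak below the threshold, or one alike in both genotypes.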
